A study of Saccharomyces cerevisiae with 36 samples.

Results

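SAR1 and ARF2 are 2 of the 230 yeast genes named on this splicing-sensitive array, and both encode small GTPases that start the formation of vesicle coats. They were taken by gene symbol in the array's annotation, which gave 6 of the 724 named probes, 3 for each gene, and 12 spots a gene on each array. SAR1 has the locus tag YPL218W and ARF2 the locus tag YDL137W. Each gene's 3 neighbouring probes were read, in order, as 1 across the exon junction, 1 in the intron and 1 in an exon. This reading is an inference from probe order, since the role of a probe is not stated.

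The study set 18 strains of the yeast Saccharomyces cerevisiae against wild type on 36 arrays of 2 colours, with 2 arrays a strain and the channels exchanged between them. In 17 strains a gene was deleted. The strains brr1, cus2, ecm2, gcr3, hsp104, msl1, mud1, mud13, mud2, nam8, prp17, prp18, snu17, snu40, snu66 and upf3 were grown at 26 °C and compared with BY4741, the wild type. The dbr1 deletion was compared with wild type on pooled RNA from haploid cells and from diploid cells, some dividing and some sporulating. The remaining strain, prp4-1a, carries a temperature-sensitive allele and was compared with the isogenic wild type SS330 after both had moved from 26 °C to 37 °C for 2 hours. Nothing in the sources used here says whether the 2 arrays of a strain came from separate cultures, so a p-value reflects how far arrays differ, which could be technical alone.

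Sar1 is the GTPase that recruits the COPII coat to the endoplasmic reticulum, from which vesicles carry newly made proteins towards the Golgi. Arf2 is one of the Arf GTPases of the Golgi, which recruit the COPI coat and other coats, and it is nearly identical to Arf1. Both cycle between a GDP-bound and a GTP-bound form, and in the GTP-bound form they sit in the membrane. Their transcripts each carry an intron, which the spliceosome must remove before the mRNA can be translated in full.

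Each probe gives a log2 ratio between a mutant and its wild type. Subtracting the exon probe's ratio from the intron probe's gives the intron index, which is high where more intron is found per transcript. Subtracting it from the junction probe's gives the junction index, which falls where fewer transcripts are joined. A mean is followed by the SD of the 2 arrays (n = 2), and SE is the standard error of the fit across all introns. "Raised" and "lowered" are used for a limma adjusted p under 0.05 and only in 14 strains. The genes were chosen by earlier values of these arrays, and those in prp4-1a, nam8, msl1 and cus2 were known then, so these 4 strains are described without a test. Values in further strains may also have led to the choice, so the p-values in the 14 strains are not independent of it.

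The direction of the ratio is likely channel 2 over channel 1, but no source settles it. Among arrays with the mutant in channel 2, prp4-1a correlated at −0.40 with cus2, −0.43 with hsp104 and −0.36 with nam8 over all probes, and hsp104 at −0.36 with snu17. The same pairs with the mutant in channel 1 correlated at 0.55, 0.29, 0.40 and 0.31. These pairs were picked as the most opposed among all pairs of arrays of the same orientation. The deposited ratios of the 2 arrays of a strain correlated below 0, from −0.94 in snu66 to −0.18 in nam8. The exceptions were cus2 at 0.31, hsp104 at 0.19 and snu40 at 0.03. With the likely direction, the exon probe of STO1, the gene deleted in gcr3, stood at −5.59 ± 0.31 in that strain, against −1.25 to 0.87 on the other arrays. The exon probe of MUD1 stood at −2.56 ± 0.10 in mud1, against −0.73 to 0.36. The opposite direction would place the exon probe of each deleted gene above wild type in the strain that lacks it. The intron probes were divided with the likely direction, at 1.06 ± 0.13 for STO1 in gcr3 and −1.80 ± 0.03 for MUD1 in mud1. With the sign turned, every "raised" below reads "lowered", every place from the top becomes the same place from the bottom, and every difference between strains changes sign.

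SAR1 carried one of the most raised introns of the array in several strains. Its intron index was raised in 11 of the 14 tested strains and lowered in 0, with means from 0.52 to 2.89 in the 11. It stood among the 10 highest introns in 7 of all 18 strains and above the median intron in 15. The 7 include nam8 and msl1, and the 15 include these and prp4-1a, whose values were known when the gene was chosen. Over the same 14 strains 49.9% of all intron tests were called raised. ARF2 was raised in 9 of the 14 strains and lowered in 0, with means from 0.52 to 1.12 in the 9. It was never among the 10 highest and was above the median intron in 9 of 18.

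**Figure D1:**
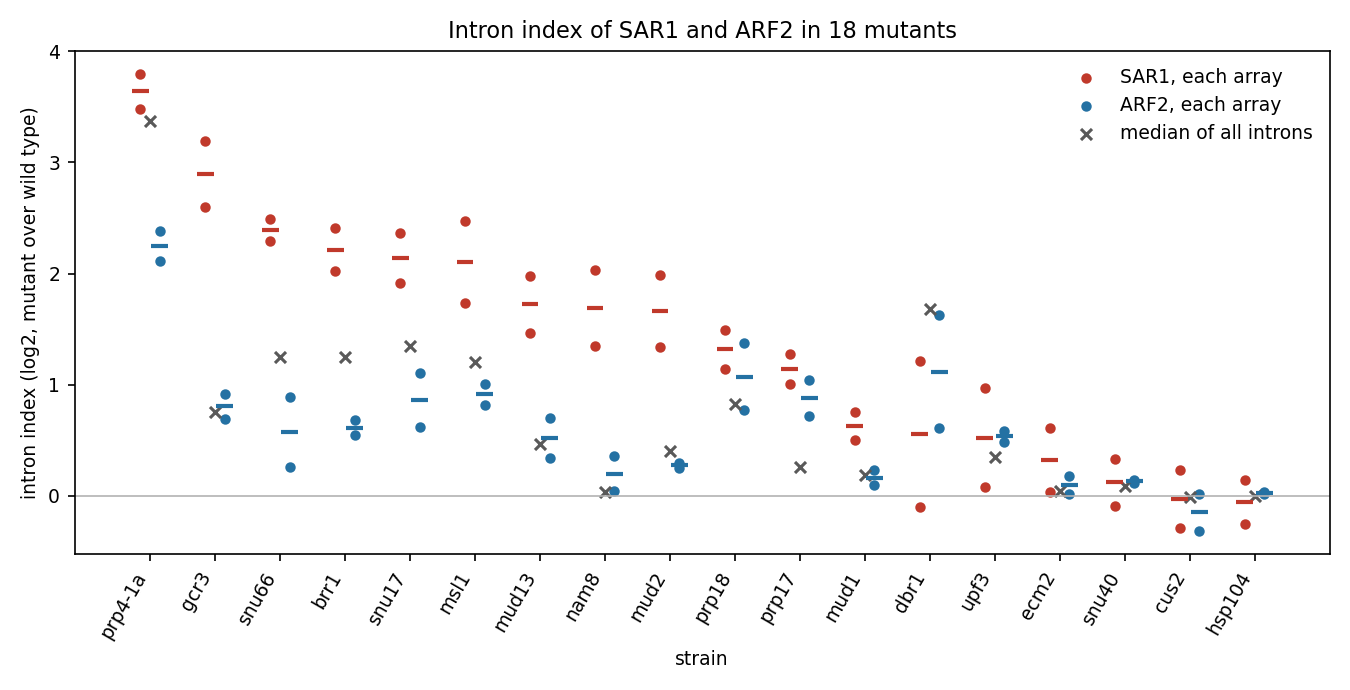
Intron index of SAR1 and ARF2 (log2, mutant over wild type) in 18 strains, ordered by the mean of SAR1. Points are the 2 arrays of a strain, bars their mean and crosses the median of all measured introns. SAR1 lies above ARF2 on 30 of the 36 arrays, and dbr1 shows the opposite order on both arrays.

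The gcr3 strain lacks the larger protein of the complex that binds the cap of nuclear RNA, and the SAR1 intron index was 2.60 and 3.19 on the 2 arrays. Both lay far above 0, the mean was 2.89 ± 0.42, or 7.42-fold, and SAR1 was raised (SE 0.19, limma adjusted p = 2.49e-12). It ranked 2 of 214 introns, behind only STO1, the deleted gene itself, at 6.65. The intron probe of STO1 stood at 1.06 there and its exon probe at −5.59. The median intron of this strain stood at 0.75, and 66.4% of introns were raised.

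In mud13, which lacks the smaller protein, SAR1 read 1.47 and 1.98, with a mean of 1.72 ± 0.36 (limma adjusted p = 2.14e-07). It ranked 3 of 215, after the ribosomal protein genes RPS26B at 1.84 and RPS19A at 1.74. Raised introns made up 50.2% of those measured, and the median was 0.46. The difference gcr3 minus mud13 was itself tested and was 1.17 (SE 0.27, 95% interval 0.61 to 1.73, limma adjusted p = 0.00511), a call made in the same direction for 11.8% of introns. That call was lost without the dye term (limma adjusted p = 0.0885) and without the second gcr3 array, where the difference was 1.09 (limma adjusted p = 0.0736).

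ARF2 read 0.69 and 0.92 in gcr3, a mean of 0.81 ± 0.16 (limma adjusted p = 0.00055). In mud13 it read 0.34 and 0.70, a mean of 0.52 ± 0.26 (limma adjusted p = 0.0251). The mud13 call was lost when either array was left out. These values lay near the medians of the strains, at places 103 of 214 and 104 of 215. For ARF2 the difference gcr3 minus mud13 was 0.28, with an interval from −0.27 to 0.84 (limma adjusted p = 0.549).

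Mud2 helps the spliceosome bind the branch point region. In the mud2 strain SAR1 read 1.34 and 1.99, a mean of 1.66 ± 0.46 (limma adjusted p = 1.46e-07), and ranked 4 of 215. The introns above it were the second intron of EFM5, RIM1 and RUB1. ARF2 read 0.30 and 0.25 there, a mean of 0.28 ± 0.03, and was not called (limma adjusted p = 0.241), while 43.3% of introns were raised.

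Mud1 and Nam8 are proteins of the U1 snRNP, the particle that binds the start of the intron. In mud1 SAR1 read 0.51 and 0.75, a mean of 0.63 ± 0.17, and was raised (limma adjusted p = 0.0166), as were 25% of introns. It ranked 29 of 212, and the call was lost when either array was left out. The call was also lost without the dye term, with zeros kept and against hsp104. For the intron probe alone SAR1 was not called, at 0.37 (limma adjusted p = 0.103). The difference mud1 minus mud2 for SAR1 was −1.03 (SE 0.27, 95% interval −1.59 to −0.47, limma adjusted p = 0.0141), a call made in the same direction for 8.1% of introns. It was lost without the dye term and when any 1 of the 4 arrays was left out, with differences from −1.14 to −0.92. For ARF2 the difference was −0.11, with an interval from −0.66 to 0.44 (limma adjusted p = 0.887).

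In nam8 SAR1 had the highest intron index of all 221 introns, at 1.35 and 2.03, a mean of 1.69 ± 0.48. The next intron was the second of EFM5 at 1.39, and the median intron stood at 0.04. In this strain 4.52% of introns were raised, and nothing is read from that share for SAR1, since this value was known when the gene was chosen. The exon probe of SAR1 read −0.34 and −0.50 there, the second lowest of 227 exon probes. ARF2 read 0.04 and 0.36 in nam8, a mean of 0.20 ± 0.22, which lay within its spread of 0.

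Brr1, Snu66 and Snu17 are needed for making snRNPs, for the tri-snRNP and for the RES complex of the activated spliceosome. In snu66 SAR1 read 2.30 and 2.49, a mean of 2.39 ± 0.14 (limma adjusted p = 2.44e-11), place 7 of 203. In brr1 it read 2.41 and 2.03, a mean of 2.22 ± 0.27 (limma adjusted p = 2.36e-10), place 9 of 212. In snu17 it read 1.92 and 2.36, a mean of 2.14 ± 0.31 (limma adjusted p = 3.3e-10), place 11 of 208. Raised introns made up 92.6%, 94.3% and 94.2% in these strains, so being raised there was common, and it was the place by the intron index that was high. By the intron probe alone SAR1 stood at place 12 of 204 in snu66, 14 of 213 in brr1 and 49 of 210 in snu17.

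ARF2 lay at the other end in the same strains, although it too was raised. Its means were 0.57 ± 0.44 in snu66, 0.61 ± 0.09 in brr1 and 0.86 ± 0.34 in snu17 (limma adjusted p = 0.00654, 0.00385 and 0.000143). Those are places 180 of 203, 188 of 212 and 170 of 208. The snu66 call rests on 1 array, since ARF2 read 0.89 and 0.26 and the estimate without the first array was 0.18 (limma adjusted p = 0.508). The ARF2 call was also lost in brr1 without the second array (0.60, limma adjusted p = 0.0504) and in snu17 without the first (0.55, limma adjusted p = 0.0561).

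Snu40, a protein linked to the U5 snRNP, was compared with Snu66. In snu40 SAR1 read −0.09 and 0.34 and ARF2 0.12 and 0.15, and neither was called (limma adjusted p = 0.99 for both), as was no other intron (0%). The difference snu66 minus snu40 was 2.27 for SAR1 (SE 0.27, 95% interval 1.71 to 2.83, limma adjusted p = 9.5e-08), and 84.5% of introns were called in that direction. For ARF2 it was 0.44, with an interval from −0.11 to 0.99 (limma adjusted p = 0.127). Without the second snu66 array the ARF2 difference was 0.83 and passed (limma adjusted p = 0.0191).

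Prp17 and Prp18 act at the second step of splicing, at which the exons are joined. Here the introns of both genes were raised to a similar level. In prp17 SAR1 had a mean of 1.14 ± 0.19 (1.01 and 1.28) and ARF2 one of 0.88 ± 0.22 (0.72 and 1.04), with limma adjusted p = 3.74e-05 and 0.000607. In prp18 SAR1 had a mean of 1.32 ± 0.25 (1.14 and 1.49) and ARF2 one of 1.07 ± 0.43 (0.77 and 1.37), with limma adjusted p = 1.45e-06 and 2.03e-05. Introns were raised in 30.9% of cases in prp17 and 74.9% in prp18. ARF2 reached its best place in prp17, at 30 of 207, next to SAR1 at 15, but its prp17 call was lost without the second array (limma adjusted p = 0.055).

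The difference prp17 minus prp18 in the intron index was −0.17 for SAR1 (95% interval −0.73 to 0.39, limma adjusted p = 0.633) and −0.19 for ARF2 (interval −0.74 to 0.36, limma adjusted p = 0.589), where 35.9% of introns were called lower. For the intron probe alone both genes were called lower in prp17, as were 61.8% of all intron probes. The difference was −0.74 for SAR1 (limma adjusted p = 0.00545) and −0.85 for ARF2 (limma adjusted p = 0.00574), beside a median of −0.62 over all intron probes, so nothing particular to the 2 genes is read from these calls. The exon probe read lower in prp17 than in prp18 for both genes, at −0.42 against 0.14 for SAR1 and −0.22 against 0.44 for ARF2.

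Dbr1 opens the lariat, the looped form in which an intron is released. In dbr1 SAR1 read −0.10 and 1.22, a mean of 0.56 ± 0.93, and ARF2 0.61 and 1.63, a mean of 1.12 ± 0.72. Both were raised (limma adjusted p = 0.0098 and 5.32e-06), as were 81.6% of introns, but both lay below the median intron of 1.68. SAR1 was at place 140 of 185 and ARF2 at place 121. The SAR1 intron probe had 2 usable spots on the first array and 1 on the second. ARF2 lay above SAR1 on both arrays, by 0.71 and 0.41, and the SAR1 call rests on 1 array, since without the second the estimate was 0.10 (limma adjusted p = 0.745). In this pooled RNA the exon probes of the listed meiotic genes that were measured read from −0.44 to 0.20, and their part in the intron values was not tested.

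Upf3 is a factor of nonsense-mediated decay, which destroys transcripts with early stop codons, among them many unspliced ones. In upf3 the means of the 2 genes were alike, 0.52 ± 0.63 for SAR1 and 0.54 ± 0.07 for ARF2 (limma adjusted p = 0.0347 and 0.0291), in a strain with 36.7% of introns raised. The SAR1 arrays read 0.08, with 1 usable intron spot, and 0.97, with 3, and this call was lost when either array was left out. The ARF2 arrays read 0.49 and 0.59, and this call too was lost when either was left out. The intron probe alone was called for neither gene, at 0.25 for SAR1 and 0.18 for ARF2 (limma adjusted p = 0.214 and 0.427). Their exon probes were lowered, at −0.27 and −0.35, which adds to the index.

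In the other strains neither intron was called. In ecm2, which lacks a protein of the spliceosome core, SAR1 read 0.04 and 0.61 and had a mean of 0.33 ± 0.41 (limma adjusted p = 0.549), while 3.98% of introns were raised. In hsp104, which lacks a chaperone outside splicing, SAR1 had a mean of −0.06 ± 0.28 and ARF2 one of 0.02 ± 0.01, with 0% of introns raised. In cus2 the means were −0.03 ± 0.37 and −0.15 ± 0.24, described without a test.

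The strains prp4-1a and msl1, like nam8 described without a test, had SAR1 values well above 0. In prp4-1a, whose allele affects a protein of the U4/U6 particle, SAR1 read 3.80 and 3.48 and ARF2 2.39 and 2.11. Those were the highest means of each gene, yet SAR1 was at place 92 of 216 and ARF2 at place 164, because the median intron stood at 3.37. In msl1, which lacks a U2 snRNP protein, SAR1 read 1.74 and 2.47, at place 7 of 193, and ARF2 0.82 and 1.00, at place 143.

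**Figure D2:**
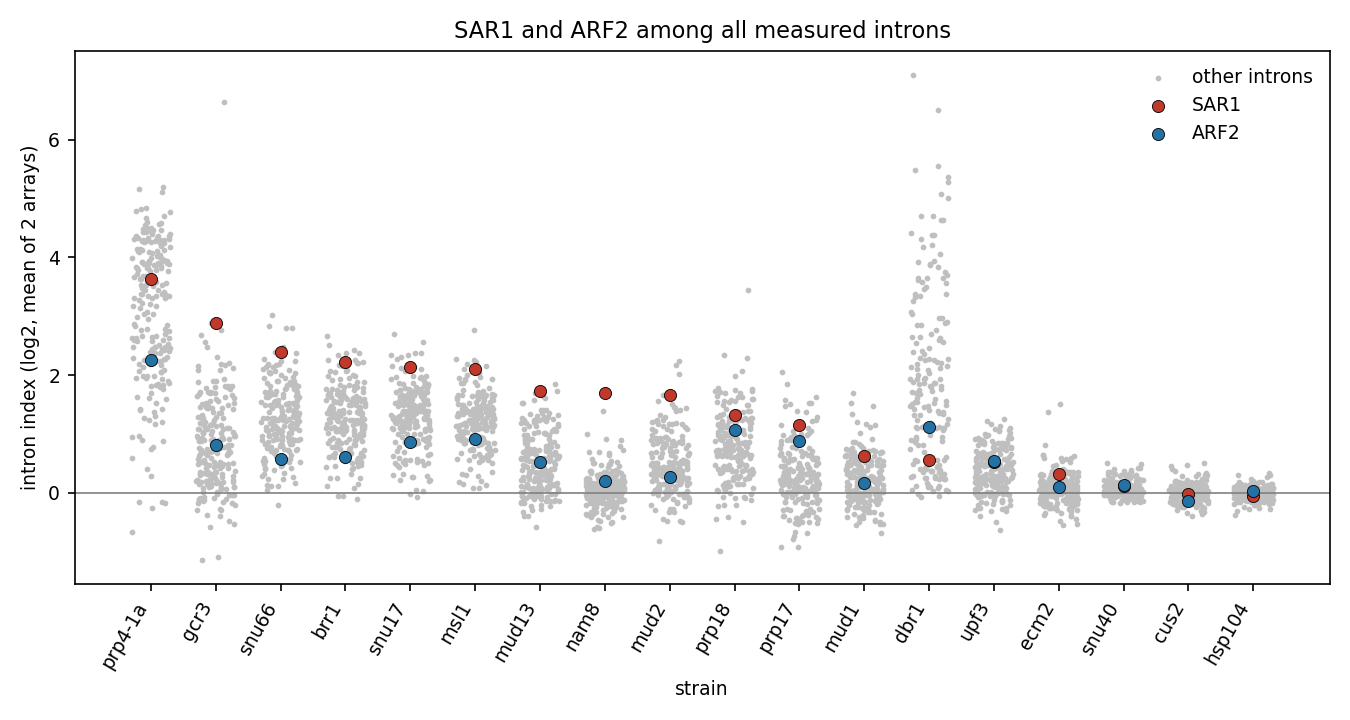
Intron index of every intron measured on both arrays of a strain (grey, log2 mutant over wild type, mean of 2 arrays), with SAR1 in red and ARF2 in blue. SAR1 is the highest point in nam8 and the second highest in gcr3, and ARF2 lies low among the points in snu66, brr1 and snu17.

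Ordered by its mean, SAR1 ran from prp4-1a at 3.64 and gcr3 at 2.89 through snu66, brr1, snu17, msl1, mud13, nam8, mud2, prp18 and prp17 to mud1, dbr1, upf3, ecm2, snu40, cus2 and hsp104 at −0.06. The arrays of neighbouring strains in this order overlapped in 14 of 17 pairs. The exceptions were prp4-1a above gcr3, gcr3 above snu66 and prp17 above mud1. ARF2 ran from prp4-1a at 2.25 and dbr1 at 1.12 to cus2 at −0.15, and its neighbours also overlapped in 14 of 17 pairs. The array with the mutant in channel 1 gave the higher SAR1 index in 16 of 18 strains, by 0.45 on average, and the mean of the 2 orientations cancels a constant difference of this kind.

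The 3 probes show which part of a transcript moved. The intron probe of SAR1 was raised in 9 of the 14 strains and lowered in 0, with the highest tested mean of 2.33 in snu66. Over these strains 45.7% of all intron probe tests were called raised. Its junction and exon probes moved down together. Across the 18 strains their means correlated at r = 0.97 (Spearman 0.95), as a description over points that share arrays, so these values do not tell the 2 roles apart. The exon probe of ARF2 stayed within −0.35 and 0.44 in all 18 strains, although centring on exon probes moved it to 0.86 in prp4-1a.

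**Figure D3:**
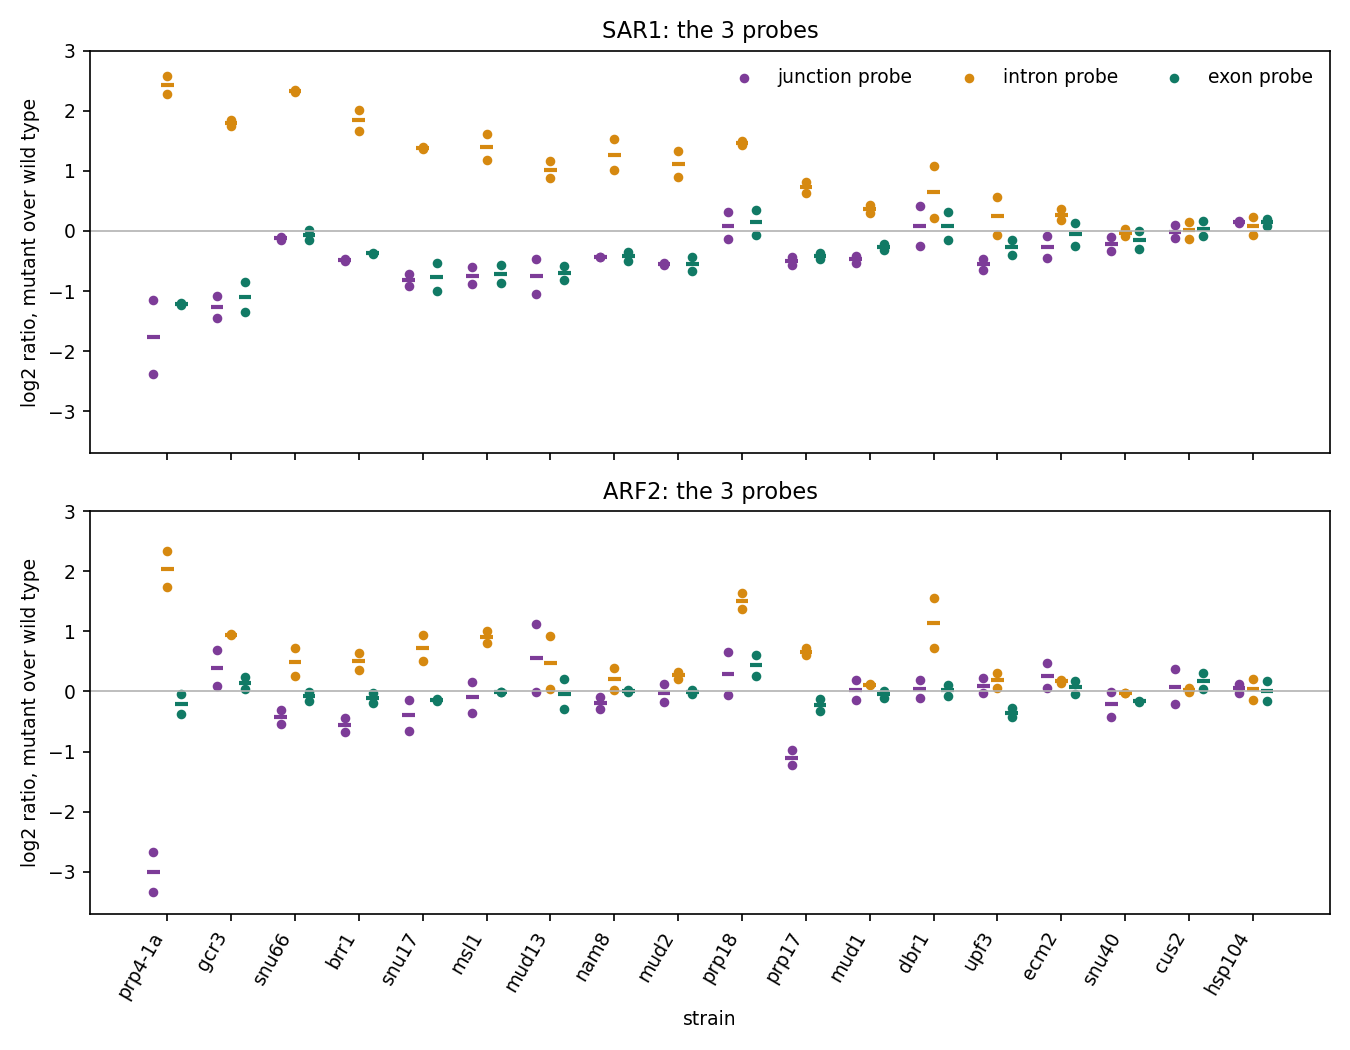
Log2 ratio (mutant over wild type) of the junction, intron and exon probes of SAR1 (top) and ARF2 (bottom) in 18 strains, with a point for each array and a bar for the mean. The junction and exon probes of SAR1 fall together in gcr3 and snu17, while the ARF2 junction probe falls on both arrays in prp4-1a and prp17 and its exon probe stays near 0.

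The exon probe of SAR1 was lowered in 7 of 14 strains and raised in 0. It read −0.85 and −1.34 in gcr3, a mean of −1.09 ± 0.35 (limma adjusted p = 5.54e-10), at place 9 from the bottom of 226. It was −0.76 ± 0.33 in snu17, −0.70 ± 0.16 in mud13 and −0.55 ± 0.16 in mud2 (limma adjusted p = 1.6e-06, 3.4e-06 and 0.000208). The mud13 call was lost with array weights (limma adjusted p = 0.139) and with the 2 mud13 arrays alone (limma adjusted p = 0.364), and arrays of that strain differed at exon probes by 3.21 times the median strain. Exon probes were lowered in 50% of cases in gcr3, 34.7% in snu17, 44.4% in mud13 and 13.7% in mud2.

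The other calls were smaller. The SAR1 exon probe was −0.42 ± 0.06 in prp17, −0.27 ± 0.18 in upf3 and below 0 on both arrays of brr1, at −0.39 and −0.36, where 41.3%, 21.2% and 40.7% of exon probes were lowered. The brr1 and prp17 calls were lost without the first array and the upf3 call without either array. Centring each array on its exon probes moved ratios by 0.31 in gcr3, 0.27 in mud13 and 1.07 in prp4-1a. After that centring the exon probe of SAR1 was lowered in 6 strains and raised in 1, prp18. Of the 7 calls, 4 were kept, those in gcr3, mud13, mud2 and snu17, and ecm2 and mud1 were added. The share of all exon probes called after centring is not given here, so nothing particular to SAR1 is read from these counts. In snu66 the exon probe of SAR1 was −0.06 ± 0.11 although its intron index was the second highest of the tested strains.

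The exon probe of ARF2 was raised in prp18, at 0.61 and 0.27, a mean of 0.44 ± 0.24 (limma adjusted p = 0.00289), where 19.3% of exon probes were raised. It was lowered in upf3, at −0.43 and −0.28, a mean of −0.35 ± 0.11 (limma adjusted p = 0.0314). After centring on exon probes it was raised in 2 strains, gcr3 and prp18, and lowered in 0, again with no share of all exon probes beside these counts. The prp18 call was lost without the first array, at 0.25 (limma adjusted p = 0.201). The upf3 call was lost when either array was left out.

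**Figure D4:**
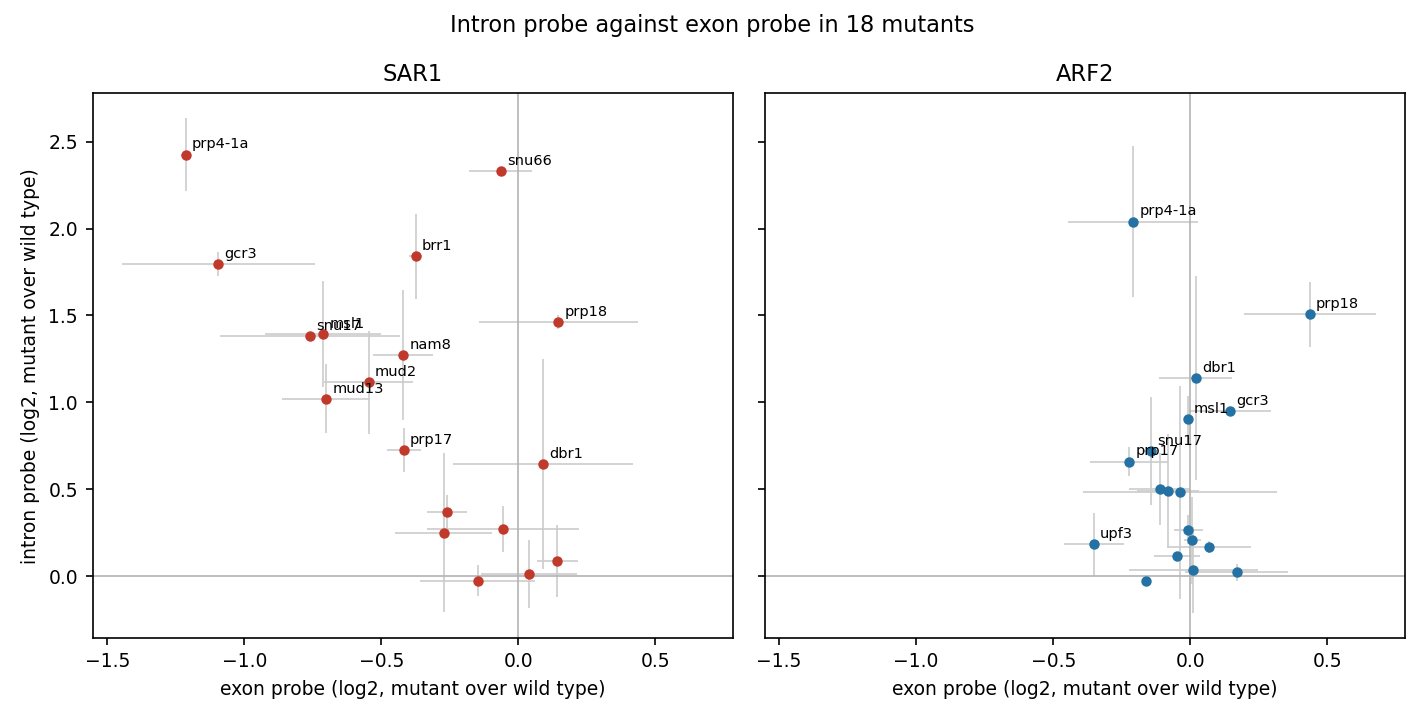
Mean log2 ratio of the intron probe against that of the exon probe for SAR1 (left) and ARF2 (right), with a point for each of 18 strains and bars for the SD of 2 arrays. Strains to the upper left for SAR1 have more intron and less exon signal, with gcr3 at 1.80 and −1.09, while snu66 has 2.33 and −0.06. ARF2 has no strain with an exon value under −0.35.

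The junction index of SAR1 was called in 0 of 14 strains (0 also at an unadjusted p under 0.05 in limma), against 6.92% of all junctions over these strains. Its means lay between −0.28 and 0.01 in the 17 deletion strains. With array weights it was called in 3 strains, and likewise in 3 with prp4-1a left out of the fit. The share of all junctions called in these 2 settings is not given here, so nothing particular to SAR1 is read from these counts. In prp4-1a the 2 arrays disagreed, at 0.08 and −1.18.

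The junction index of ARF2 was lowered in 1 strain, prp17, where it read −0.86 and −0.90. The mean was −0.88 ± 0.03 (limma adjusted p = 0.00219), place 5 from the bottom of 221, and 18.1% of junctions were lowered there. Without the first array the call was lost, at −0.77 (limma adjusted p = 0.0999). In prp18, the other strain of this step, it was −0.14 ± 0.27 (limma adjusted p = 0.676), and the difference between the strains was not tested. In prp4-1a it read −3.30 and −2.29, the second lowest of 212 junctions, while its exon probe was −0.21 ± 0.24. ARF1 is nearly identical to ARF2 in its coding sequence, and whether the exon probe of ARF2 also reads ARF1 was not tested, since the probes' sequences are not used here. The ARF2 junction index was higher on the array with the mutant in channel 2 in 16 of 18 strains.

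Besides SAR1 and ARF2 the array held 17 of 48 genes on a list drawn up for vesicle transport, and no other gene of the small GTPase list. The transport list was loosely drawn and holds genes with other roles, such as VPS75. None of the 17 introns was lowered in any strain, and the counts below stand beside the 49.9% of all intron tests called raised over the 14 strains. The most often raised were ERV41, a cargo receptor of COPII vesicles, in 11 of 14 strains, VPS75, a histone chaperone, in 10 of 14, and SEC17, which helps take SNARE complexes apart, in 9 of 13. SEC27, a COPI coat subunit, and SNC1, a SNARE of secretory vesicles, were raised in 9 of 11 each. The least often raised were APS3, of an adaptor complex for vacuolar transport, in 2 of 9, and VPS29, of the retromer, in 3 of 12.

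SAR1 stood above each measured gene of this list in gcr3, mud13 and mud2, and also in nam8, whose value was known when SAR1 was chosen. The nearest were SNC1 at 2.47 in gcr3 and 1.53 in mud13, SEC17 at 1.55 in mud2 and BIG1 at 0.54 in nam8. The list's median was 0.92 in gcr3, 0.35 in mud13, 0.56 in mud2 and 0.11 in nam8, beside 0.75, 0.46, 0.41 and 0.04 for all introns. In snu66 ARF2 stood below each of the 15 list members measured.

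By Pearson's r of the mean intron index over the strains, the introns most like SAR1 were those of IST1 (0.93), RUB1 (0.90), OST5 (0.90), YDL012C (0.89) and PFY1 (0.89), each over 18 strains. The median r with all 215 introns compared was 0.65, and ARF2 came at place 80 with 0.70. Without prp4-1a and dbr1 the 5 were IST1, RPL31B, GCR1, RPS19B and OST5, so that IST1 and OST5 appear in both lists. The introns most like ARF2 were those of RPL19A (0.95), RPL43A (0.95), RPS24B (0.94), RPL31A (0.92) and RPL32 (0.92), against a median of 0.77. These 5 are ribosomal protein genes, as are 43% of the introns on the array. SAR1 came at place 154 for ARF2. Without prp4-1a and dbr1, RPL19A, RPL43A, RPL32 and RPS24B remained among the 5, joined by ARP9. By Spearman without those strains the 5 were RPL32, PMI40, RPL43A, KIN28 and STO1, of which 2 are ribosomal protein genes. These correlations share arrays between genes and are a description.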

How the data were processed

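The deposited values are the authors' log2 ratios of the 2 channels, 1 per spot and array, per the file headers and the values. Base 2 was checked on 148 differences between recurring values within an array: 44 matched a ratio of whole numbers at base 2, against 0 to 3 at bases e, 3, 5 and 10. That form of the check was chosen after a first form, on the values themselves, found no match at base 2. How the authors went from image to ratio was not stated in the labels or headers. Each array has 3456 spots, or 864 probes with 4 spots, and zeros and blanks were treated as missing. Usable named spots numbered 2127 to 2792 of 2896 per array. The SAR1 intron probe had 1 to 4 usable spots (median 3), with 1 spot on 3 arrays, 1 each of dbr1, msl1 and upf3. The other member probes had at least 2. The number of arrays limits precision.

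All 36 arrays entered 1 limma fit (limma 3.58.1, R 4.3.3) with a coefficient per strain and a dye term, adjusted by Benjamini and Hochberg within a strain and measure at 0.05 and tested on simulated data. A strain was tested at a feature where both its arrays were measured. This requirement was set after a first run had tested strains with 1 array. The replicate number equals the dye orientation in every strain, so the dye term is also the replicate block. Slide numbers differ for every array, so slide could not be a block. The fit shares 1 spread, while arrays of prp4-1a, mud13 and dbr1 differed by 4.28, 2.15 and 1.93 times the median strain at introns, so their SE is too small.

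SAR1, ARF2, the gene lists and the strains to test were chosen with earlier results of these data known. Named genes are these 2, the deleted genes STO1 and MUD1, and listed small GTPases. Others are the 5 most alike by Pearson's r over at least 16 of 18 strains. The same was done over at least 14 of 16 without prp4-1a and dbr1. From the transport list come the 4 raised in most strains (5 with a tie), the 2 in fewest, and any above SAR1 in nam8. Introns next to SAR1 in a strain were named after their values were seen.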

Additional observations from a re-analysis of the deposited data

Results flagged for a closer look

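In 3 tested pairs of strains the SAR1 intron index differed between the strains themselves. The difference was 1.17 for gcr3 minus mud13, −1.03 for mud1 minus mud2 and 2.27 for snu66 minus snu40 (limma adjusted p = 0.00511, 0.0141 and 9.5e-08). In the same pairs ARF2 differed by 0.28, −0.11 and 0.44, none of which passed. Whether SAR1 and ARF2 differ from each other in these contrasts was not tested.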

How the results depend on the processing

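Of 84 single-strain results of both genes, 46 kept their call or lack of one in every alternative run and 38 changed in at least 1. Over the 1296 combinations of result and alternative, a call was lost in 62, gained in 36 and reversed in 0. Some of these combinations could not change, since centring an array cancels in an index. Testing strains measured on 1 array could act on these genes, measured on both arrays, only through the adjustment. The totals are therefore no measure of how stable the calls are. The SAR1 intron count of 11 ranged from 8 to 11. The exchange of channels is the replicate block, and without it gcr3 minus mud13 (1.17, limma adjusted p = 0.0885) and mud1 minus mud2 (−1.03, limma adjusted p = 0.158) for SAR1 were no longer called, and the ARF2 exon count fell from 2 to 1. The first was also lost with array weights (1.17), with the 2 arrays of each strain alone (1.17) and without the second gcr3 array (1.09), but not without any other array (all 4 gave 1.09 to 1.25). The second was lost at a threshold of 0.01 (−1.03) and with any array left out (−1.14 to −0.92). For prp17 minus prp18 the intron probe gave −0.74 for SAR1 and −0.85 for ARF2. For snu66 minus snu40, leaving out an array gave 0.052 to 0.83 for ARF2. The ARF2 intron count of 9 was 5 with either array left out. The SAR1 junction count of 0 was 3 with array weights, 3 with deletion strains only and 8 for the junction probe. The ARF2 junction count of 1 was 5, 4, 3 for the junction probe and 2 with the 2 arrays of a strain alone. Its prp17 call was lost without the first array, where mud13 was called instead. The SAR1 exon count of 7 was 4 without the first array and 6 without the second. The ARF2 exon count of 2 was 4 with array weights, 1 against hsp104, 1 at 0.01, 0 with the 2 arrays alone and 0 to 1 with an array left out. Testing strains measured on 1 array, chosen after seeing the data, changed no call. The setting with at least 2 spots gave no SAR1 intron value, since 3 arrays had 1 spot. No share of all features called stands beside the counts of these alternative runs, so nothing particular to either gene is read from them. The cause of these changes was not tested.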
